A study of Mus musculus with 35 samples.

Results

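Adora2a, Pde1b, Ptpn5 and Rgs4 are 4 of the 760 genes measured in the hippocampus of 35 mice. They were chosen as a set because each is known for strong expression in the striatum, and because Adora2a differed widely between single mice in this table. The spread between mice therefore chose the members, and its values are a description.

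The study treated mouse models of Alzheimer disease with Urolithin A, which gut bacteria form from plant ellagitannins, given by oral gavage at 200 mg/kg per day for 5 months. All mice were 18 months old and on the C57BL6/J background, and total RNA came from 5 mg of hippocampus. The groups ADPolB_UA (6 mice, 4 females and 2 males, Urolithin A) and ADPolB_veh (7 mice, 3 females and 4 males, vehicle) carried the 3xTgAD alleles, which include Tg(APPSwe,tauP301)L1Lfa, and a heterozygous Polbtm1Rsky allele. The groups AD_UA (7 mice, 3 females and 4 males, Urolithin A) and AD_veh (8 mice, 4 females and 4 males, vehicle) carried the same 3xTgAD alleles, whose transgenes are known to be driven by a neuronal Thy1 element, without the Polbtm1Rsky allele. WT_veh held 7 wild-type mice (4 females and 3 males) given vehicle. All 4 transgenic groups thus shared the APP and tau transgenes and the rest of the 3xTgAD genotype. No treated wild-type mice were analysed here, so a difference made by Urolithin A could be measured only on the transgenic background. A mouse is named by its group and its label number. The labels do not say whether mice of a group shared a litter, and p-values measure only the spread between these mice.

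The value of a gene in a mouse is a normalized NanoString barcode count on the log2 scale, where a step of 1 is a doubling of the count. Different probes bind with different efficiency, so levels were compared between mice for 1 gene and not between genes. In bulk tissue, a different share of cells of a type and a different amount of RNA per cell cannot be told apart.

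The 4 products act in linked signalling steps. Adora2a encodes an adenosine receptor that couples to G proteins, raises cAMP and is concentrated in the striatal projection neurons of the indirect pathway. Pde1b encodes a phosphodiesterase that calcium and calmodulin switch on and that breaks down cAMP and cGMP. Ptpn5 encodes STEP, the striatal-enriched protein tyrosine phosphatase, which removes phosphate from the kinase Fyn, from ERK and from NMDA receptor subunits. Rgs4 encodes a regulator of G protein signalling that speeds GTP hydrolysis by Gi/o and Gq alpha subunits. Ptpn5 and Rgs4 are known to be expressed by hippocampal and cortical neurons as well, whereas Adora2a messenger RNA is known to be sparse in the hippocampus.

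The striatal label could not be checked against further markers. Of 37 other striatum-enriched genes listed for this purpose, among them Drd1, Drd2, Ppp1r1b and Penk, 0 were in the table. The hippocampal label could be checked against 1 of 28 subfield genes only. That gene was Bok, which had a median of 8.26 in 31 mice and read 6.02 in the lowest of all mice.

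Promoter sequences are shown because the members were high together in the same mice. The sequences are RefSeq windows of assembly GRCm38.p6 that run from 250 bases before to 50 bases after an annotated start. Windows were held for 3 of the 4 genes, with 1 for Rgs4, 3 for Pde1b and 2 for Ptpn5. One window is shown for each of these genes, 5′ to 3′ on the strand of the gene, with motif matches in capitals. The Rgs4 window lies at chr1:169747593-169747892 on the minus strand, the Pde1b window at chr15:103502784-103503083 on the plus strand, and the Ptpn5 window at chr7:47133635-47133934 on the minus strand.
Rgs4: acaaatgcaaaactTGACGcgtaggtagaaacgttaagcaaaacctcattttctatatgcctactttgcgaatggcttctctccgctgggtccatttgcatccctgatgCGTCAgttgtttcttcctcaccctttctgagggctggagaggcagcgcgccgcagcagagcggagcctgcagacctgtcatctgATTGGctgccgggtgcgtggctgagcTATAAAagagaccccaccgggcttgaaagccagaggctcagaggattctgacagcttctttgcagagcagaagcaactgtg
Pde1b: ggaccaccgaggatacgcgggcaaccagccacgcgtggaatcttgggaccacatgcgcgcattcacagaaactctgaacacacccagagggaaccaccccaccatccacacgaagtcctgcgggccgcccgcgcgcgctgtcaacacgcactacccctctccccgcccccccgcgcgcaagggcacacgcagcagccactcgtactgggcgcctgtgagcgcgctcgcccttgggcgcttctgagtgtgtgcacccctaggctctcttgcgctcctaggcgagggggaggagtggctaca
Ptpn5: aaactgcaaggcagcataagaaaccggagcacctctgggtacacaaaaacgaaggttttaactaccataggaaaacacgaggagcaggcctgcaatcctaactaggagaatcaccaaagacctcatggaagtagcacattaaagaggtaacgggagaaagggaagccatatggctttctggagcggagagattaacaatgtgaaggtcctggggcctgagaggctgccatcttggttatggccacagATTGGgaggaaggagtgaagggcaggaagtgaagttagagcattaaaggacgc
The motifs searched on both strands were TGACG, the core of the cAMP response element, TATAAA, the TATA box, and CCAAT. Bases are counted from the start, with those before it negative, and a position is that of the first base as shown. The Rgs4 window held TGACG on its own strand at -236 and on the opposite strand at -141. It also held TATAAA at -31 and CCAAT on the opposite strand at -57. The Ptpn5 window shown held CCAAT on the opposite strand at -3, and the Pde1b window shown held 0 of these motifs. A second Pde1b window, not shown, held TATAAA at 30. No 2 of the matches overlapped. The Pde1b window shown had 67.0% G and C and 28 CpG dinucleotides, and those not shown had 44.0% and 1, and 51.0% and 2. The Ptpn5 window shown had 48.7% and 6, and the one not shown had 69.0% and 24. The Rgs4 window had 53.0% and 13. The median of 32851 promoter windows of the same length, which do not cover every chromosome, was 52.7% and 7. Among the same 32851 windows, 20.8% held TGACG, 13.6% TATAAA and 37.4% CCAAT. A match describes letters only, and these data hold no measurement of a factor at these sites.

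Adora2a was very high in single mice and near the bottom of the table in the rest. It read 6.07 in ADPolB_UA 6, 8.60 in AD_UA 3, 7.13 in AD_UA 8 and 9.85 in AD_veh 2, against a median of 3.29 in the other 31 mice. The highest of those 31 was ADPolB_veh 6 at 4.79, which left a gap of 1.28 below the lowest of the 4 mice. The lowest was ADPolB_veh 2 at 0.98.

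By group, Adora2a had a lowest, median and highest value of 2.35, 3.50 and 6.07 in ADPolB_UA and of 0.98, 3.32 and 4.79 in ADPolB_veh. The same 3 values were 2.59, 3.69 and 8.60 in AD_UA, 1.90, 3.21 and 9.85 in AD_veh, and 2.89, 3.49 and 4.11 in WT_veh. All 5 groups overlapped, and their medians lay between 3.21 in AD_veh and 3.69 in AD_UA. Neighbours in that order differed by less than the spread within any group. Of all values in the table, 0.19% lay below the median of Adora2a. The number of barcodes behind these low values is unknown, and the treatment of background is not stated.

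Pde1b, the phosphodiesterase, was highest in the same 4 mice. Its value was 9.07 in ADPolB_UA 6, 10.24 in AD_UA 3, 9.73 in AD_UA 8 and 11.27 in AD_veh 2, against a median of 8.24 and a highest value of 8.98 (WT_veh 6) in the other 31. The gap below ADPolB_UA 6 was only 0.09. Unlike that of Adora2a, the median of Pde1b did not lie near the bottom of the table, with 37.88% of all values below it. How precisely Pde1b was measured is unknown.

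The lowest, median and highest values of Pde1b were 7.76, 8.03 and 9.07 in ADPolB_UA, 8.12, 8.26 and 8.75 in ADPolB_veh, and 7.94, 8.38 and 10.24 in AD_UA. They were 8.00, 8.19 and 11.27 in AD_veh and 7.60, 8.33 and 8.98 in WT_veh. The groups overlapped and their medians spanned less than the range inside any of them.

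Ptpn5, the tyrosine phosphatase, gave the same 4 highest mice with smaller steps. It read 10.30 in ADPolB_UA 6, 10.84 in AD_UA 3, 10.62 in AD_UA 8 and 11.64 in AD_veh 2, against a median of 9.66 and a highest value of 10.18 (AD_UA 7) in the other 31. The gap was 0.12. Ptpn5 had lowest, median and highest values of 9.31, 9.70 and 10.30 in ADPolB_UA, 9.40, 9.59 and 9.99 in ADPolB_veh, and 9.41, 9.72 and 10.84 in AD_UA. In AD_veh they were 9.18, 9.64 and 11.64, and in WT_veh 9.50, 9.66 and 10.07. The 5 medians differed by less than the range of any group.

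Rgs4, the regulator of G protein signalling, was also highest in these 4 mice, but with another order among them. It read 12.56 in ADPolB_UA 6, 12.95 in AD_UA 3, 12.93 in AD_UA 8 and 12.76 in AD_veh 2, against a median of 10.98 and a highest value of 12.14 (AD_UA 7) in the other 31. AD_veh 2, first in Adora2a, Pde1b and Ptpn5, was only the third in Rgs4. The 4 mice lay within 0.39 of each other in Rgs4 and within 3.78 of each other in Adora2a.

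The lowest, median and highest values of Rgs4 were 10.49, 10.94 and 12.56 in ADPolB_UA, 10.27, 10.59 and 11.25 in ADPolB_veh, and 10.89, 11.59 and 12.95 in AD_UA. They were 10.46, 11.06 and 12.76 in AD_veh and 10.59, 11.22 and 11.61 in WT_veh. From the highest median to the lowest the order was AD_UA, WT_veh, AD_veh, ADPolB_UA and ADPolB_veh. All 5 groups overlapped, and neighbours in this order differed by less than the range of either group. Among mice outside the 4, AD_UA 7 at 12.14, WT_veh 6 at 11.61 and AD_UA 6 at 11.59 were high and ADPolB_veh 7 at 10.27 was low.

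**Figure D1:**
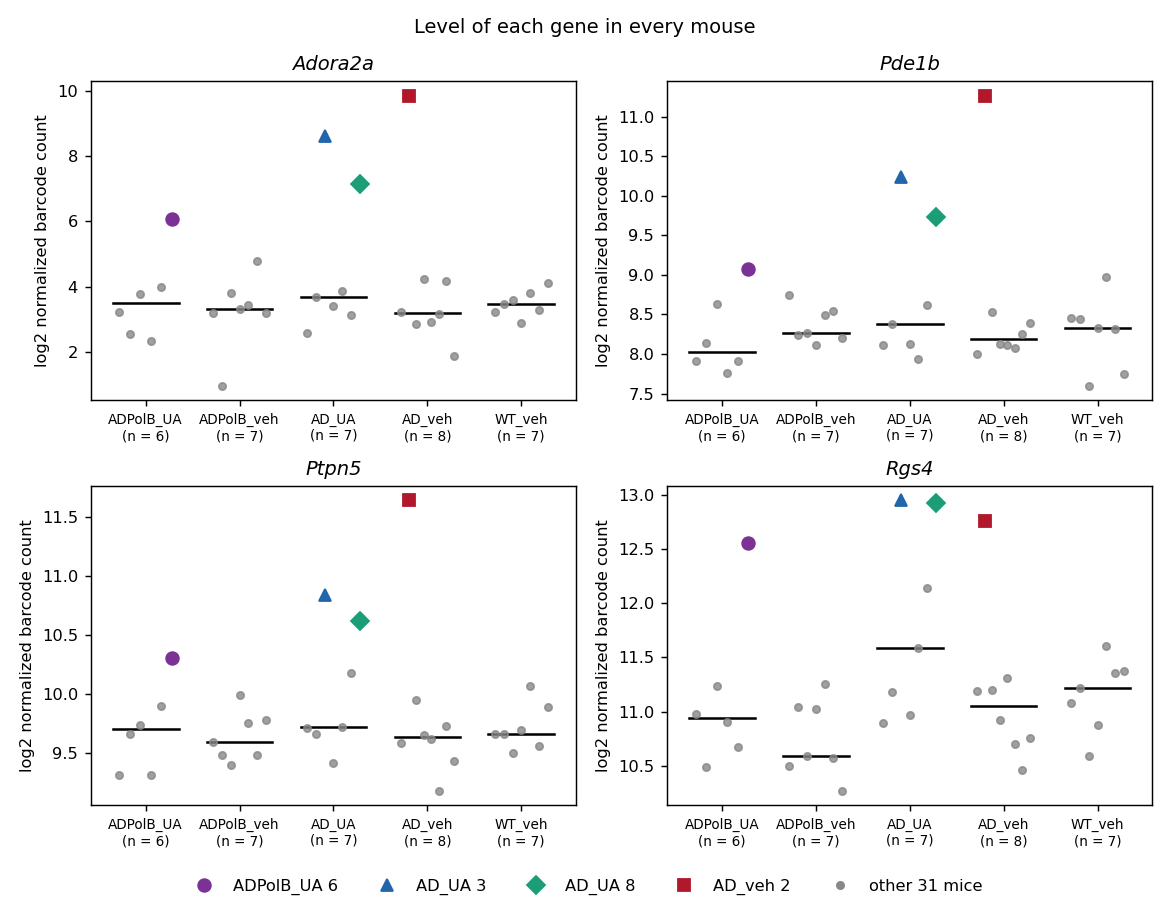
Each panel plots 1 gene, with the log2 normalized barcode count on the vertical axis and the 5 groups on the horizontal axis; points are single mice, black lines are group medians, and larger coloured symbols are the 4 mice that were highest in all 4 genes. Adora2a reached 9.85 in AD_veh 2 while the other 31 mice lay between 0.98 and 4.79, and the groups overlapped in every panel.

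The spread between mice was large for Adora2a, and in all 4 genes it was smaller without these 4 mice. The SD over 35 mice was 1.71 for Adora2a, 0.714 for Pde1b, 0.473 for Ptpn5 and 0.695 for Rgs4, against a median of 0.285 over all genes. By SD, Adora2a ranked first of 760 genes, Pde1b 40, Rgs4 46 and Ptpn5 150. Without the 4 mice, the SD was 0.735, 0.307, 0.228 and 0.401 in the same order of genes, against a median of 0.252. By SD over the 31 mice, Adora2a ranked 19 of 760 genes, Rgs4 169, Pde1b 283 and Ptpn5 430. Leaving the 4 mice out lowered the SD 2.33-fold in Adora2a, 2.32-fold in Pde1b, 2.08-fold in Ptpn5 and 1.73-fold in Rgs4. The median of that ratio over all genes was 1.08. These ratios describe mice picked on these genes and carry no test.

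The likeness of Adora2a to the other members was high with the 4 mice and low without them. After group and sex means were removed, Pearson r over 35 mice was 0.844 between Adora2a and Pde1b, 0.836 between Adora2a and Ptpn5, and 0.735 between Adora2a and Rgs4. The Spearman rho values were 0.579, 0.650 and 0.476. Over the 31 mice without the 4, r was 0.056, 0.123 and -0.256. In the 31 mice, where Adora2a lay near the bottom of the table, its relation to the other members was weak.

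Pde1b, Ptpn5 and Rgs4 kept part of their likeness. Their r over 35 mice was 0.886 for Pde1b and Ptpn5, 0.838 for Pde1b and Rgs4, and 0.823 for Ptpn5 and Rgs4, with rho of 0.782, 0.722 and 0.661. Without the 2 mice farthest in Adora2a, AD_UA 3 and AD_veh 2, the values of r were 0.682, 0.729 and 0.706, and over the 31 mice 0.390, 0.398 and 0.394. Their rho over the 31 mice was lower still, at 0.272, 0.227 and 0.320. The 3 pairs with Adora2a had r of 0.573, 0.575 and 0.498 without the same 2 mice. Correlation was common in this table. The genes of a mouse share its tissue piece, and the part of this in the correlation was not tested. Over all 288420 gene pairs, the median r was 0.073 and the 95th percentile was 0.751 over 35 mice, and 0.068 and 0.730 over 31. The 3 values near 0.39 stood above 75.36% to 75.94% of gene pairs.

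**Figure D2:**
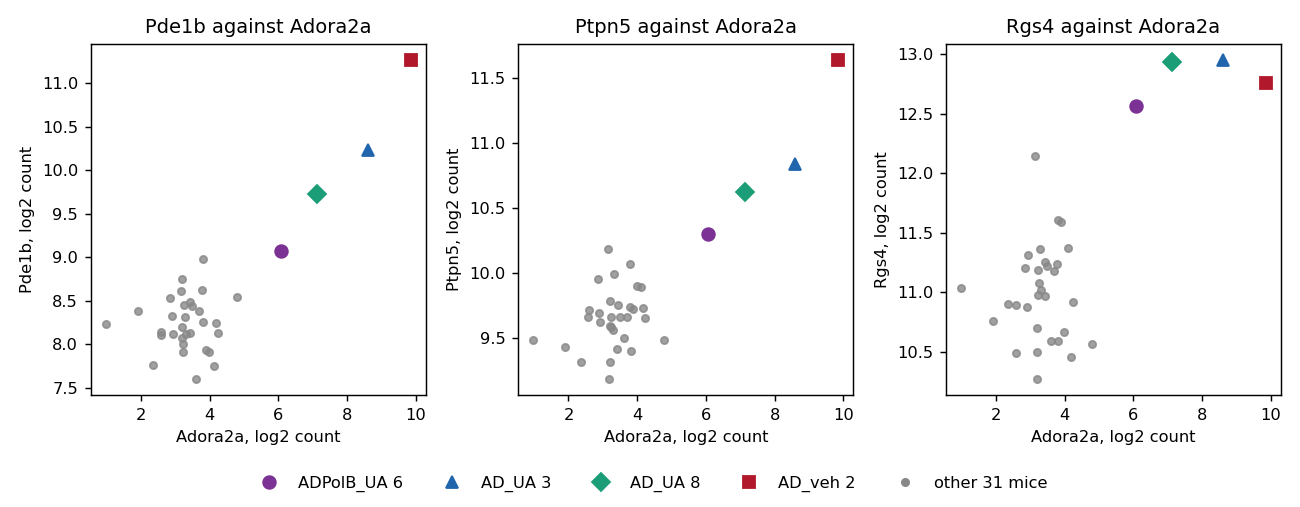
Each panel sets the log2 count of Adora2a (horizontal axis) against that of Pde1b, Ptpn5 or Rgs4 (vertical axis), with 1 point per mouse and the 4 mice as larger coloured symbols. Among the 31 grey mice r with Adora2a was 0.056, 0.123 and -0.256, while the 4 mice lie apart at the upper right of every panel.

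Genes outside the members shared the pattern. The genes most like Adora2a over 35 mice were Smg5 (r = 0.856), Pde1b, Ptpn5, Camk4 (r = 0.799) and Sun2 (r = 0.784), and those least like it were St6galnac5 (r = -0.744) and Alg2 (r = -0.735). Most of this was lost without the 4 mice. Over the other 31, r with Adora2a was 0.308 for Smg5, -0.052 for Camk4 and 0.272 for Sun2. It was -0.066 for St6galnac5 and -0.214 for Alg2. Smg5 encodes a factor of nonsense-mediated mRNA decay, Camk4 a calcium- and calmodulin-dependent protein kinase, and Sun2 a protein of the inner nuclear membrane. The genes most like Pde1b included Camk4 (r = 0.896), Ptpn5, Lrtm2 (r = 0.864) and Gnb5 (r = 0.864), and it was least like Nhsl1 (r = -0.810) and Arhgef26 (r = -0.783). Over the 31 mice, r with Pde1b was 0.644 for Lrtm2, 0.533 for Camk4, 0.545 for Gnb5, -0.349 for Nhsl1 and -0.711 for Arhgef26.

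Ptpn5 was most like Pde1b, Smg5 (r = 0.853), Utrn (r = 0.841), Adora2a and Rgs4, and least like St6galnac5 (r = -0.847) and Nhsl1 (r = -0.807). In the 31 mice, r with Ptpn5 was 0.279 for Smg5, 0.553 for Utrn, -0.567 for St6galnac5 and -0.374 for Nhsl1. Rgs4 was most like Gpr158 (r = 0.932), Camk4 (r = 0.916), Gnb5 (r = 0.898), Cntn4 (r = 0.872) and Slc2a13 (r = 0.865), and least like Cachd1 (r = -0.843) and Nhsl1 (r = -0.808). Gnb5 encodes a G protein beta subunit that pairs with RGS proteins of the R7 family, and Gpr158 encodes an orphan receptor that binds such complexes. Gpr158 and Rgs4 kept r of 0.730 over the 31 mice. In those mice the genes most like Rgs4 were Pak1 (r = 0.879), a kinase, and Stx1a (r = 0.865), a syntaxin of synaptic vesicle fusion.

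In 15 of 760 genes, 1.97%, these 4 mice were the 4 highest of 35. The 4 members are among them by the choice of the mice. The 11 others, singled out after their values were seen, included Atp2b2, Camk4, Dock3, Gnb5, Gpr158, Kctd1, Prkcb, Rgs7bp, Slc2a13 and Smg5. There were 0 genes in which the 4 mice were the 4 lowest, but some genes came close. In St6galnac5, ADPolB_UA 6, AD_UA 3, AD_UA 8 and AD_veh 2 ranked 31, 33, 34 and 35 of 35 from the highest. Their ranks were 31, 35, 32 and 34 in Nhsl1, and 32, 33, 35 and 31 in Cachd1. Camk4 read 10.43 in ADPolB_UA 6, 11.01 in AD_UA 3, 10.98 in AD_UA 8 and 11.30 in AD_veh 2, against at most 10.18 in the other 31. Rgs7bp, whose product anchors R7 RGS proteins at the membrane, read 10.90, 11.20, 11.25 and 11.30 in the same 4 mice, against at most 10.67. Gnb5 read 10.45, 10.53, 10.58 and 10.91, against at most 10.33.

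**Figure D3:**
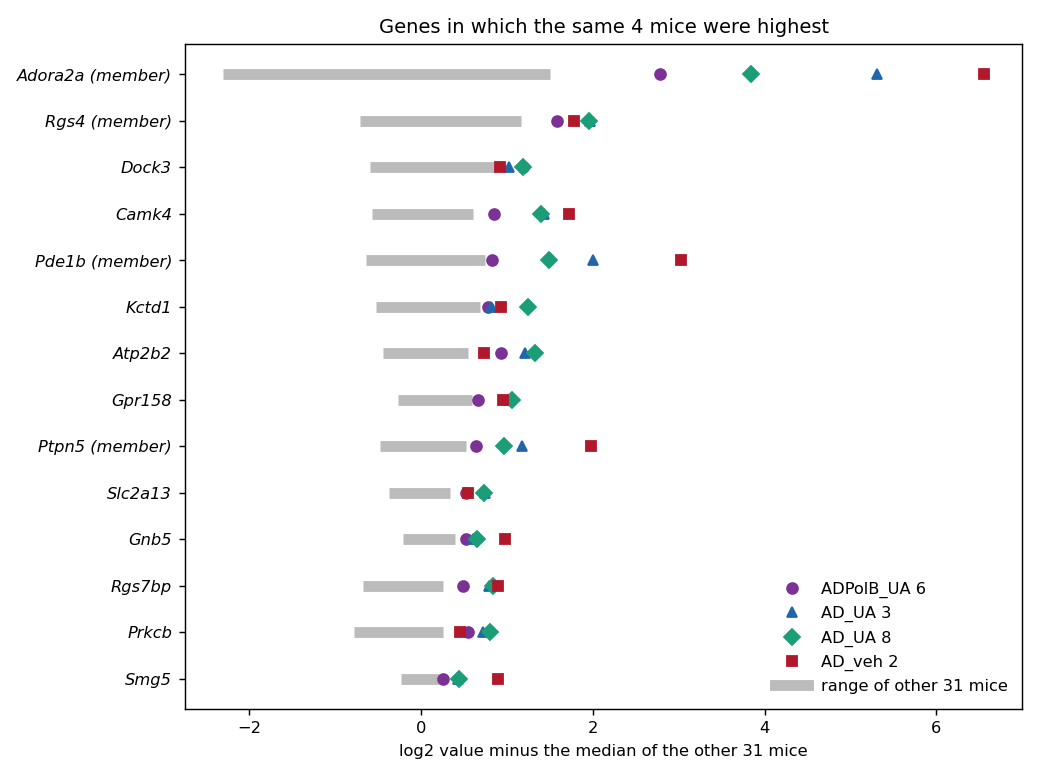
For the members and 10 further genes in which the same 4 mice were highest, coloured symbols give each of these mice as its log2 value minus the median of the other 31 mice, and grey bars give the range of those 31. Adora2a lay 6.56 above that median in AD_veh 2, farther than any other gene plotted.

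In the myelin genes, AD_veh 2 was unlike ADPolB_UA 6, AD_UA 3 and AD_UA 8, which were alike. Of 21 measured myelin and oligodendrocyte genes, ADPolB_UA 6, AD_UA 3 and AD_UA 8 were each below the median of the 31 mice in all 21, whereas AD_veh 2 was above it in all 21 and the highest of 35 mice in 20. Mbp, a major myelin protein, read 12.13 in ADPolB_UA 6, 11.66 in AD_UA 3, 11.70 in AD_UA 8 and 14.20 in AD_veh 2, against a range of 10.67 to 13.78 in the other 31. AD_veh 2 was second in Tppp3, at 10.61.

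Synaptic genes went the other way in AD_veh 2. Of 15 measured pan-neuronal and synaptic genes, AD_veh 2 was the lowest of 35 mice in 11, while ADPolB_UA 6 was above the median of the 31 in all 15, AD_UA 3 in 9 and AD_UA 8 in 11. Snap25, a protein of vesicle fusion, read 12.99 in ADPolB_UA 6, 12.85 in AD_UA 3, 13.47 in AD_UA 8 and 11.68 in AD_veh 2, against 12 to 12.88 in the other 31. Of 7 astrocyte and microglia genes, AD_UA 3 and AD_UA 8 were below the median in all 7, ADPolB_UA 6 in 4, and AD_veh 2 in 0.

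Few region genes were measured. Bok, the hippocampal subfield gene, read 8.14 in ADPolB_UA 6, 7.82 in AD_UA 3, 8.05 in AD_UA 8 and 6.02 in AD_veh 2, against 6.83 to 8.90 in the other 31. AD_veh 2 was thus the lowest of all mice in Bok. Mef2c, a transcription factor from the cortical list, read 12.73 in ADPolB_UA 6, 12.57 in AD_UA 3, 12.92 in AD_UA 8 and 10.58 in AD_veh 2, against 9.34 to 12.91 in the other 31. The second cortical gene was Pvalb, the marker of a class of interneurons, at 8.86, 9.80, 9.81 and 9.75 in the same mice, against 7.46 to 10.25.

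Cplx1, listed for thalamus and habenula, read 10.77, 10.69, 10.86 and 10.32, against 9.53 to 10.75. Enpp2, listed for choroid plexus, read 10.40, 10.11, 10.42 and 11.49, against 9.28 to 14.63. The part of tissue makeup in the levels of the 4 members was not tested.

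**Figure D4:**
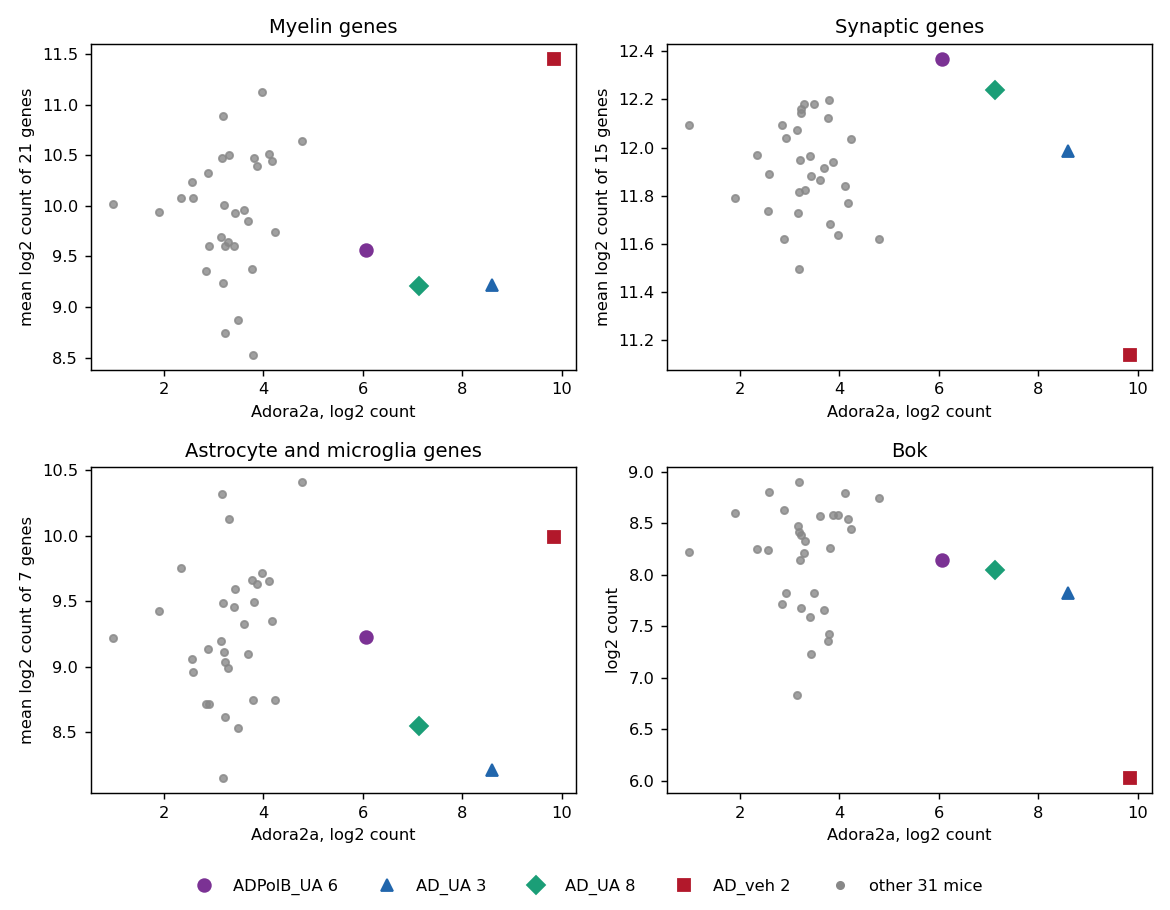
Each panel sets the log2 count of Adora2a (horizontal axis) against the mean log2 count of 21 myelin genes, 15 synaptic genes or 7 astrocyte and microglia genes, or against Bok, with 1 point per mouse. AD_veh 2 lies at the top for myelin and at the bottom for synaptic genes and Bok, and the other coloured mice do not.

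In the summed linear level of each list, put back on the log2 scale, the myelin genes ranged from 14.98 to 16.79 in ADPolB_UA, 14.65 to 16.54 in ADPolB_veh, 14.74 to 16 in AD_UA, 14.94 to 17.14 in AD_veh and 14.10 to 16.22 in WT_veh. The synaptic genes ranged from 16.10 to 16.60, 15.93 to 16.51, 16.27 to 16.52, 15.67 to 16.55 and 15.97 to 16.49 in the same groups. The astrocyte and microglia genes ranged from 12.55 to 13.37, 12.13 to 14.04, 11.84 to 13.27, 12.31 to 13.94 and 12.18 to 13.26. All groups overlapped in these 3 sums, and 0 of the genes were listed at 0 throughout a group.

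The pathway genes near the members were measured in part. Of the lists made around each member, the table held 1 of 26 adenosine and cAMP genes, 7 of 26 phosphodiesterase and calmodulin genes, 7 of 37 RGS and G protein genes, and 3 of 27 genes of STEP substrates, tyrosine kinases and phosphatases. AD_veh 2 was the lowest of 35 mice in Pde1a at 8.56, while the close relative Pde1c was highest there at 8.45, as Pde1b was. In ADPolB_UA 6, AD_UA 3 and AD_UA 8, Pde1a read 11.69, 11.25 and 11.42, inside the range of 10.25 to 11.93 of the other 31 mice.

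Prkar1b, a regulatory subunit of the cAMP-dependent kinase, read 12.74 in ADPolB_UA 6, 12.43 in AD_UA 3 and 12.93 in AD_UA 8, and was lowest of 35 in AD_veh 2 at 11.17. The other 31 mice ranged from 11.45 to 12.73 in Prkar1b, with a median of 11.91. Rgs7 did not share the pattern of its partners Gnb5 and Rgs7bp. It read 9.40, 9.56 and 9.77 in ADPolB_UA 6, AD_UA 3 and AD_UA 8, and was lowest of 35 in AD_veh 2 at 8.61. Fyn, a substrate of STEP, was highest of 35 mice in ADPolB_UA 6 at 10.64 and lowest in AD_veh 2 at 10.01.

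Across the whole table, AD_veh 2 and AD_UA 3 stood at opposite ends. The median of 760 genes was 8.88 in ADPolB_UA 6, 8.60 in AD_UA 3, 8.70 in AD_UA 8 and 9.12 in AD_veh 2, against 8.64 to 9.09 in the other 31. AD_veh 2 was the highest mouse in 189 genes and the lowest in 118, and AD_UA 3 was the lowest in 163. No batch is given in the labels used here. The values of the members below are given with and without the 4 mice.

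Group differences were then tested for all 760 genes with limma, with sex as a term, and p-values were adjusted over all genes by the Benjamini-Hochberg method. In 8 comparisons, 0 of the 4 members passed an adjusted p of 0.05, and the lowest of their 32 adjusted p-values was 0.255. In limma at an unadjusted p below 0.05, 2 of the 32 passed, both for Rgs4, against 11.2% over all genes and the same comparisons. Without the 4 mice 4 of 32 passed, again all for Rgs4, against 13.8% over all genes. These 4 mice were picked as the highest in the members themselves, so their removal lowers the spread of the members. The p-values and intervals without the 4 mice, here and below, are therefore descriptions and not valid tests. The exact permutation of mice in the 5 comparisons of 2 groups called 0 members and 0 genes. At an unadjusted exact p below 0.05 it had 35 to 153 genes per comparison, with 0 members among them.

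The share of all genes that passed the adjusted limma threshold was 0.132% for AD_veh minus WT_veh, which is 1 gene, and 0% for each of the other 7 comparisons. The comparisons share mice, so their values for the members are not independent of each other. The rule that chose the members used the spread over all mice, in which differences between groups take part.

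Adding the 3xTgAD alleles was the question of AD_veh against WT_veh. Rgs4 averaged 11.16 ± 0.71 in AD_veh and 11.16 ± 0.34 in WT_veh (SD, n = 8 and 7), a limma difference of 0.01 with an SE of 0.33 and an adjusted p of 0.991. Adora2a averaged 4.04 ± 2.46 in AD_veh and 3.49 ± 0.40 in WT_veh, a difference of 0.53 with a 95% interval of -1.26 to 2.32. Pde1b differed by 0.30 and Ptpn5 by 0.12. Without the 4 mice all 4 differences were below 0, at -0.28 for Adora2a, -0.05 for Pde1b, -0.13 for Ptpn5 and -0.22 for Rgs4. For Adora2a, Pde1b and Ptpn5 the sign rested on AD_veh 2 alone, without which it turned to the same values. Of the members, in all 35 mice, 0 reached an unadjusted p below 0.05, against 6.58% of all genes.

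For ADPolB_veh against WT_veh, Rgs4 averaged 10.75 ± 0.36 in ADPolB_veh and 11.16 ± 0.34 in WT_veh (SD, n = 7 each). The limma difference was -0.40 with an SE of 0.34 and an adjusted p of 0.416. Neither group holds any of the 4 mice, but the fit to the 31 mice estimated both the sex term and the spread anew. There the difference of Rgs4 was -0.37, with an SE of 0.17 and a limma p of 0.044 unadjusted and 0.135 adjusted. In that fit 34.5% of all genes had an unadjusted p below 0.05. The exact permutation p of Rgs4 was 0.0524, or 0.244 after adjustment over all genes. Rgs4 was 10.27 to 11.25 in ADPolB_veh and 10.59 to 11.61 in WT_veh, so the groups overlapped. The other members differed by -0.28 (Adora2a), 0.05 (Pde1b) and -0.09 (Ptpn5), and in the fit to the 31 mice by -0.17, 0.10 and -0.07. Of the members, in all 35 mice, 0 reached an unadjusted p below 0.05, against 25.8% of all genes. Median differences of genes of other cell types lay above that of all genes in this comparison. Over 21 myelin genes the median difference was 0.79, with 10 at an unadjusted p below 0.05, and over 7 astrocyte and microglia genes it was 0.76, with 5, against 0.09 over all genes. Limma called 0 of these genes at the adjusted threshold, and their part in the value of Rgs4 was not tested. Centring each mouse on its median moved the median difference of all genes here to -0.06, against 0.09 as deposited, and Rgs4 stayed below 0.

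Within vehicle-treated transgenic mice, ADPolB_veh was set against AD_veh to measure the loss of 1 Polb copy. Rgs4 averaged 10.75 ± 0.36 in ADPolB_veh and 11.16 ± 0.71 in AD_veh, a limma difference of -0.41 with an adjusted p of 0.890, and -0.14 without the 4 mice. Adora2a averaged 3.25 ± 1.15 in ADPolB_veh and 4.04 ± 2.46 in AD_veh, a difference of -0.81 that became 0.11 without the 4 mice. Pde1b and Ptpn5 also turned, with differences of -0.25 and -0.22 in all mice and 0.15 and 0.06 without the 4. Of the members, in all 35 mice, 0 reached an unadjusted p below 0.05, against 4.34% of all genes.

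Urolithin A was measured first in 3xTgAD mice. Rgs4 averaged 11.81 ± 0.88 in AD_UA and 11.16 ± 0.71 in AD_veh (SD, n = 7 and 8), a limma difference of 0.65 with an SE of 0.33 and an adjusted p of 0.520. Without the 4 mice, Rgs4 averaged 11.35 ± 0.52 in AD_UA and 10.93 ± 0.31 in AD_veh (n = 5 and 7), a difference of 0.41 with a limma p of 0.0398 unadjusted and 0.996 adjusted. In the same limma fit 3.03% of all genes had an unadjusted p below 0.05. The exact permutation without the 4 mice gave Rgs4 a p of 0.111, or 0.967 after adjustment. The groups overlapped with and without the 4 mice. Adora2a averaged 4.64 ± 2.28 in AD_UA and 4.04 ± 2.46 in AD_veh, a difference of 0.58, and 0.12 without the 4 mice. Pde1b and Ptpn5 differed by 0.11 and 0.17, and by 0.02 and 0.14 without the 4. Of the members, in all 35 mice, 0 reached an unadjusted p below 0.05, against 9.34% of all genes.

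In 3xTgAD mice with the Polbtm1Rsky allele, Rgs4 averaged 11.14 ± 0.74 in ADPolB_UA and 10.75 ± 0.36 in ADPolB_veh (SD, n = 6 and 7). The limma difference was 0.38 with an SE of 0.35 and an adjusted p of 0.951, and 0.06 without ADPolB_UA 6 and the other 3 mice. Adora2a differed by 0.48, with a 95% interval of -1.47 to 2.42, and by -0.16 without the 4 mice. Pde1b differed by -0.05 and Ptpn5 by 0.09, and without the 4 by -0.29 and -0.07. Of the members, in all 35 mice, 0 reached an unadjusted p below 0.05, against 5.66% of all genes.

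Averaged over both transgenic genotypes, Rgs4 differed by 0.51 on the log2 scale (Urolithin A minus vehicle), with an SE of 0.24 and a 95% interval of 0.03 to 1.0. Its limma p was 0.0398 unadjusted and 0.405 adjusted. Without the 4 mice, 3 of which had received Urolithin A, the difference was 0.23 with an unadjusted limma p of 0.0938 and an adjusted p of 0.692. Adora2a differed by 0.53, Pde1b by 0.03 and Ptpn5 by 0.13, and without the 4 mice by -0.02, -0.14 and 0.03. The median difference over the 21 myelin genes was -0.25, over the 7 astrocyte and microglia genes -0.26 and over the 15 synaptic genes 0.14, against -0.03 over all genes. Their part in the value of Rgs4 was not tested. Of the members, 1 of 4 reached an unadjusted p below 0.05, against 11.8% of all genes, and 0 passed the adjusted threshold.

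Averaged over both treatments, Rgs4 differed by -0.55 on the log2 scale between mice heterozygous for Polb and 3xTgAD mice, with an SE of 0.24. Its limma p was 0.0297 unadjusted and 0.255 adjusted. Without the 4 mice the difference was -0.32, with an SE of 0.14 and a limma p of 0.0245 unadjusted and 0.171 adjusted, where 21.7% of all genes had an unadjusted p below 0.05. Adora2a differed by -0.86, Pde1b by -0.33 and Ptpn5 by -0.25 in all mice, and by -0.03, -0.01 and -0.05 without the 4. The median difference was 0.27 over the 21 myelin genes and 0.37 over the 7 astrocyte and microglia genes, against 0.06 over all genes, and their part was not tested. Of the members, 1 of 4 reached an unadjusted p below 0.05, against 17.4% of all genes.

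Between the sexes, Adora2a averaged 3.68 ± 0.83 in 18 females and 3.99 ± 2.34 in 17 males. Its limma difference, female minus male, was -0.27 with a 95% interval of -1.46 to 0.92, and 0.53 with an interval of -0.0024 to 1.05 without the 4 mice, of which 3 were male. Rgs4 differed by 0.05 in all mice, and by 0.29 with a limma p of 0.0224 unadjusted and 0.322 adjusted without the 4, where 11.1% of all genes had an unadjusted p below 0.05. Pde1b differed by -0.35 and Ptpn5 by -0.10, and without the 4 by -0.04 and 0.10. The median difference over the 7 astrocyte and microglia genes was 0.60, against 0.04 over all genes, and their part was not tested. Of the members, in all 35 mice, 0 reached an unadjusted p below 0.05, against 8.55% of all genes.

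**Figure D5:**
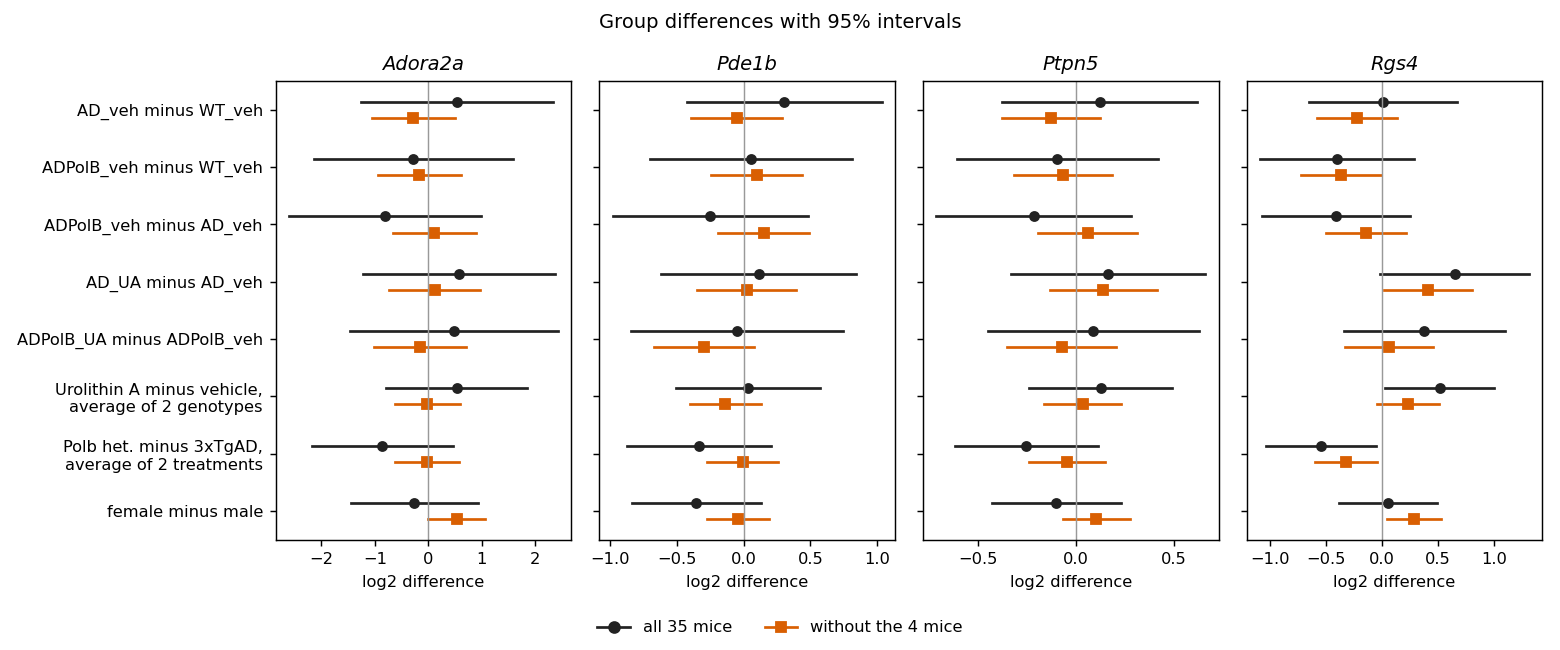
Points are limma log2 differences of the 4 genes in 8 comparisons and lines are 95% intervals, from all 35 mice (black circles) and without the 4 mice (orange squares); each panel has its own horizontal scale. The intervals of Adora2a, Pde1b and Ptpn5 include 0 in every comparison, and leaving out the 4 mice narrows them.

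The intervals show what these groups could and could not resolve. For Adora2a in AD_UA minus AD_veh, the 95% interval ran from -1.22 to 2.37, so a change of 1 log2 step in either direction lay within it. For Ptpn5 in the same comparison it ran from -0.33 to 0.66. A p that missed the threshold does not show that the groups were alike.

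The genes of all 12 lists, those of cell types and regions as well as those made around each member, passed no adjusted test. Over 66 list genes measured, of 312 listed, and 8 comparisons, limma called 0 of 528 higher and 0 lower, and 55 (10.4%) had an unadjusted p below 0.05, against 11.2% over all genes. The genes with the smallest p among those near Rgs4 were Rgs7bp, with a difference of -0.32 and an adjusted limma p of 0.255, and Gnb5, with -0.25 and 0.255. Both values are for mice heterozygous for Polb minus 3xTgAD mice over both treatments. With the 4 mice left out, the differences were -0.24 for Rgs7bp and -0.18 for Gnb5, each with an adjusted limma p of 0.144. Near Adora2a, Prkar1b differed by 0.34 for Urolithin A minus vehicle over both genotypes (adjusted limma p 0.289), and by 0.13 without the 4 mice (0.867). Near Pde1b, Pde1c differed by -0.82 for AD_UA minus AD_veh (adjusted limma p 0.472), and by -0.65 without the 4 mice (0.996). Near Ptpn5, Ptprn, a receptor-type phosphatase family member, differed by 0.22 for Urolithin A minus vehicle over both genotypes (adjusted limma p 0.289), and by 0.13 without the 4 mice (0.791).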

How the data were processed

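Hippocampal RNA was measured on a NanoString nCounter panel of mouse Alzheimer disease genes. The deposited table holds log2 values that the authors normalized, 760 genes in 35 mice. The series text names Rosalind as the analysis platform. The labels and headers do not state how values were scaled or how background was handled. No raw counts were used here, so depth is unknown. Values were used as deposited, with no filter or pseudocount. Of 595 pairs of mice, at most 4.21% of values were equal within 0.005, so no column copied another.

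All genes were fitted with limma 3.58.1 (R 4.3.3) with 5 groups and sex as terms, 2-sided, with Benjamini-Hochberg adjustment over 760 genes and a threshold of 0.05. An exact permutation of mice was run for 5 comparisons of 2 groups. Likeness is Pearson r or Spearman rho after removal of group and sex means. The members, lists and tests were chosen with earlier results of these data known. The genes named were the members, for each member the 5 most and 2 least alike, and up to 3 genes per list with the smallest p, of which some are described. The 4 mice standing apart, the genes sharing them, single-mouse values of list genes and the genes most alike over 31 mice were chosen after the values were seen. The fits were tested on simulated data, drawn as independent normal values with a capped SD. Those data held no correlated genes and no mice far from their group, so the fits were not tested for such mice. Alternatives were median centring, quantile normalization, sample weights, no sex term, moderated trend, a filter on the dimmest 25% of genes, only the compared groups, a replicate block, and leaving out mice. Expression of some genes is not reported here.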

Additional observations from a re-analysis of the deposited data

Results flagged for a closer look

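Among 20 sets of values, the 4 genes in 5 groups, 6 had a mouse farther from its group than Dixon's 95% limit allows, and chance flags about 1 set in 20. The members were chosen because single mice differ widely, and the same mouse recurs across sets, so this count is a description and cannot be read against that share. AD_veh 2 was the highest of its group and past the limit in all 4 genes, at 9.85 for Adora2a, 11.27 for Pde1b, 11.64 for Ptpn5 and 12.76 for Rgs4. ADPolB_UA 6 was past the limit in Rgs4, at 12.56. ADPolB_veh 2 was past it at the low end of Adora2a, at 0.98, a level at which background is unknown. Only the highest and lowest mouse of a group were tested. AD_UA 3, the highest of AD_UA in all 4 genes, was not past the limit. Its gap was taken to the next mouse, AD_UA 8, which was also high and was itself not tested. The limit therefore cannot show whether AD_UA 3 and AD_UA 8 stood apart from their group.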

How the results depend on the processing

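In 8 comparisons, 0 members were called by limma under every alternative run, including each of 35 mice left out in turn, and the lowest adjusted p was 0.0572, for Rgs4 with sample weights in mice heterozygous for Polb minus 3xTgAD mice. Directions were less stable, with 32 of 272 values opposite in sign. Leaving out the 4 mice, chosen after the data were seen, gave for AD_veh minus WT_veh -0.28 (Adora2a), -0.05 (Pde1b), -0.13 (Ptpn5) and -0.22 (Rgs4), for ADPolB_veh minus AD_veh 0.11 (Adora2a), 0.15 (Pde1b) and 0.06 (Ptpn5), for ADPolB_UA minus ADPolB_veh -0.16 (Adora2a) and -0.07 (Ptpn5), for Urolithin A minus vehicle -0.02 (Adora2a) and -0.14 (Pde1b), and for female minus male 0.53 (Adora2a) and 0.10 (Ptpn5). It moved the SDs to 0.735, 0.307, 0.228 and 0.401 (Adora2a, Pde1b, Ptpn5, Rgs4). It moved r to 0.056, 0.123 and -0.256 for Adora2a with Pde1b, Ptpn5 and Rgs4, and to 0.390, 0.398 and 0.394 for Pde1b with Ptpn5, Pde1b with Rgs4, and Ptpn5 with Rgs4. Sample weights gave -0.09 (Pde1b), -0.04 (Ptpn5) and -0.21 (Rgs4) for AD_veh minus WT_veh, 0.04 (Adora2a) and -0.05 (Pde1b) for ADPolB_veh minus WT_veh, 0.04 (Pde1b) and 0.02 (Ptpn5) for ADPolB_veh minus AD_veh, -0.41 (Adora2a) and -0.19 (Ptpn5) for ADPolB_UA minus ADPolB_veh, -0.0038 (Adora2a), -0.06 (Pde1b) and -0.02 (Ptpn5) for Urolithin A minus vehicle, and 0.03 (Adora2a) and 0.08 (Ptpn5) for female minus male. Median centring gave -0.06 and quantile normalization -0.04 for Rgs4 in AD_veh minus WT_veh, and both -0.09 for Pde1b in ADPolB_veh minus WT_veh. Only the compared groups gave -0.0004 for Rgs4 in AD_veh minus WT_veh. The cause of these reversals was not tested.

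Leaving out 1 mouse at a time reversed 39 of 1120 values, in 18 of 32 differences. The ranges were, for AD_veh minus WT_veh, -0.28 to 0.86 (Adora2a), -0.05 to 0.45 (Pde1b), -0.13 to 0.22 (Ptpn5) and -0.22 to 0.10 (Rgs4), for ADPolB_veh minus WT_veh -0.60 to 0.11 (Adora2a) and -0.03 to 0.19 (Pde1b), for ADPolB_veh minus AD_veh -1.16 to 0.05 (Adora2a), -0.37 to 0.13 (Pde1b) and -0.30 to 0.05 (Ptpn5), for AD_UA minus AD_veh -0.06 to 1.44 (Adora2a) and -0.11 to 0.50 (Pde1b), for ADPolB_UA minus ADPolB_veh -0.0008 to 0.81 (Adora2a), -0.23 to 0.08 (Pde1b) and -0.03 to 0.20 (Ptpn5), for Urolithin A minus vehicle -0.09 to 0.20 (Pde1b), and for female minus male -0.43 to 0.13 (Adora2a), -0.15 to 0.02 (Ptpn5) and -0.01 to 0.17 (Rgs4). Rgs4 kept its sign in the other 6 comparisons with any 1 mouse left out, from -0.68 to -0.43 for mice heterozygous for Polb minus 3xTgAD mice and from 0.38 to 0.62 for Urolithin A minus vehicle. The r of Pde1b and Ptpn5 ranged from 0.770 to 0.904. With the replicate block, 0 members were called and all 32 differences kept their direction. Whether shared numbers pair the mice is unknown. Of 62 same-number pairs from different groups, 21 had a correlation over 0.1, the median was -0.0295 and the highest was 0.789. Pairs with different numbers were not set beside them, so these values cannot decide it. Calls over all genes moved with sample weights, to between 2 and 441. With no counts or background given, the precision of low Adora2a values is unknown.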
